A study of Mus musculus with 12 samples.

Results

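The genes described here are the colony-stimulating factors (CSFs) and the receptor chains that bind them: the ligand genes Csf1, Csf2 and Csf3 and the receptor genes Csf2ra, Csf2rb, Csf2rb2 and Csf3r. They were taken as 7 named symbols, matched by Ensembl gene ID without its version to the GENCODE annotation of GRCm38, out of 48526 genes in the count table, and all 7 were found. Each was compared across 4 groups of 3 RNA-seq libraries from BMDMs, the macrophages that grow out of mouse bone marrow cells in culture. The groups were cells of WT mice (HSS9+/+) and of homozygous HSS9 KO mice, each treated with PBS (UT) or with lipopolysaccharide (LPS), an outer membrane molecule of Gram-negative bacteria sensed by TLR4, and all were collected at 6 hr. HSS9 is a regulatory element upstream of Tnf, the gene for tumor necrosis factor alpha, and the KO mice carried a germline deletion there, so the loss was not limited to macrophages. The labels call the WT mice littermates, while the methods describe KO mice bred only from homozygous pairs and C57BL/6 mice that were bought, without naming the source of the WT cells. If they were not littermates, differences of substrain cannot be told apart from the deletion. The labels do not say that replicates came from separate animals, so p-values measure the spread between these libraries.

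CSF1 (M-CSF), CSF2 (GM-CSF) and CSF3 (G-CSF) are secreted proteins that drive the survival, growth and differentiation of macrophages, dendritic cells and granulocytes. CSF1 acts through the receptor tyrosine kinase CSF1R, while GM-CSF and G-CSF act through cytokine receptors without a kinase of their own, which signal by JAK kinases and STAT transcription factors. The GM-CSF receptor pairs a ligand-specific alpha chain (Csf2ra) with the common beta chain (Csf2rb), which also serves IL-3 and IL-5, and mice carry a close copy of it (Csf2rb2) that serves IL-3. The cells of all 4 groups were grown in medium conditioned by L929 cells, a fibroblast line that secretes CSF1, so CSF1 protein was supplied from outside in every group and the values for Csf1 are those of transcripts only.

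Total counts were 26154533 to 36423921 per library, and expression is given as CPM, the normalised counts with library sizes corrected by TMM. To be called, a gene needed an edgeR adjusted p below 0.05 together with a log2 fold change (log2FC) beyond 1 in either direction. Tnf, which served as the readout of the deletion, was at 890 ± 57.4 CPM in WT LPS and 432 ± 15.2 CPM in KO LPS (SD, n = 3), and it was lower in KO than in WT within each of the 3 batches in both treatments. The short RNA share sums small nuclear, small nucleolar and other structured RNAs together with ribosomal RNAs. The most counted among them were Rn7sk, Rpph1 and the mitochondrial ribosomal RNA mt-Rnr2 (10140591, 5561596 and 4062077 counts over all libraries). The share was 4.30% to 4.48% of counts in WT UT, 8.04% to 9.14% in KO UT, 4.97% to 7.71% in WT LPS and 4.33% to 4.43% in KO LPS. KO UT thus had the highest shares, WT UT and KO LPS overlapped, and WT LPS varied most within itself. Each genotype difference tested in the CSF and receptor genes is therefore also given with this share as a covariate. Within each treatment the share did not overlap between WT and KO, so the fit can hardly tell share and genotype apart. Its slope rests mostly on the spread within WT LPS and, less, within KO UT. Values with the covariate, changes of sign included, extend that slope across groups and cannot decide whether a genotype difference is real. Macrophage markers dominated every library, with a summed level of 27977 to 34557 CPM over 9 genes. Markers of dendritic cells summed to at most 15.4 CPM, of T cells to 3.44, of B cells to 1.79 and of mast cells or basophils to 1.54. Between the genotypes 0 of them were called, against 1.28% of all genes after LPS and 1.82% in UT. In bulk samples, fewer cells that express a gene and less RNA per cell cannot be told apart.

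Of the 6 genes that passed the filter on low counts, 3 (Csf1, Csf3 and Csf3r) were called higher with LPS in WT, where 37.8% of all 15523 genes tested were called and 19.1% were called higher. In KO 4 were called higher (the same 3 and Csf2rb), where 36.9% of all genes were called and 17.6% were called higher. The other receptor genes changed by less than 1 log2 unit, and all 6 genes had an adjusted p below 0.05 with LPS in both genotypes, as did 73.1% of all genes in WT and 72.6% in KO. Csf2ra did not keep this under every scaling: its adjusted p was 0.262 in KO with upper-quartile scaling (log2FC 0.12) and 0.0897 in WT with total counts (log2FC 0.14). For each of the 6 genes all LPS libraries lay above all UT libraries of the same genotype, as they did for 38.5% of all genes in WT and 36.6% in KO. Between the genotypes 0 of 6 genes were called, in UT (1.82% of all genes), in LPS (1.28%) or in the difference of the LPS responses (2.07%). Csf2 did not pass the filter and is described by its counts.

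**Figure D1:**
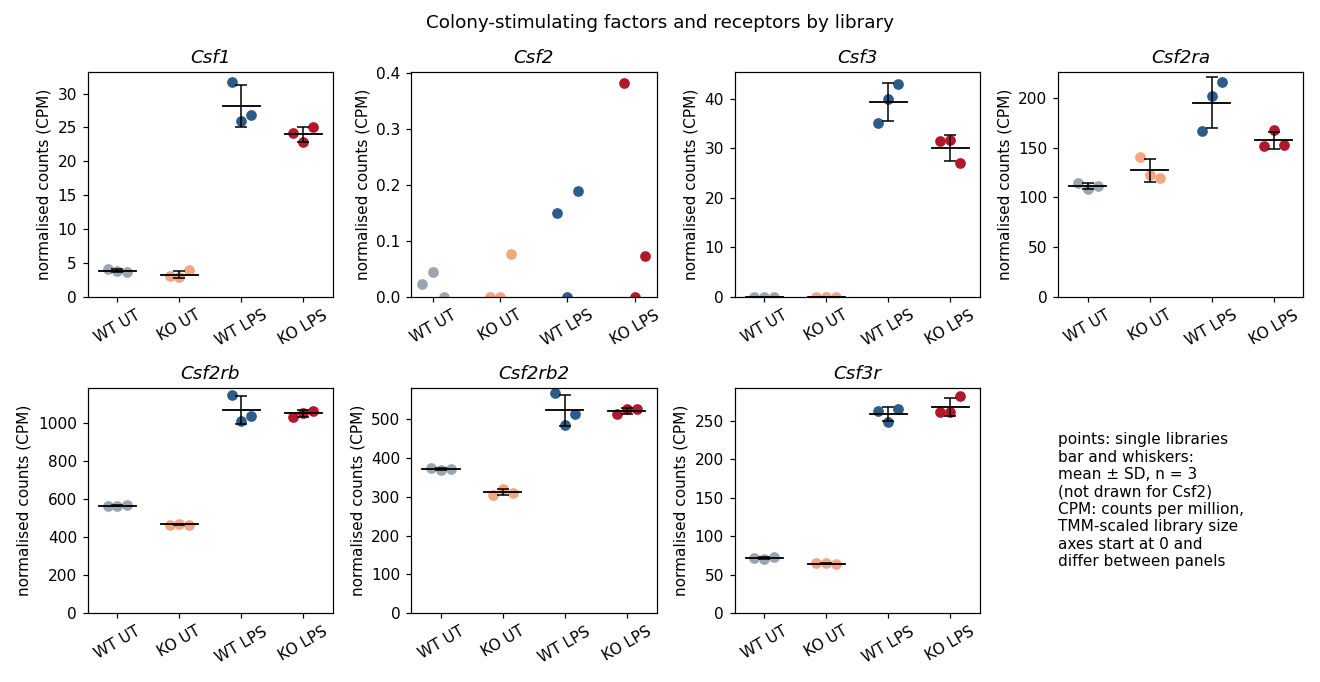
CPM of each CSF ligand and receptor gene (y axes, from 0, scaled per panel) in every library of the 4 groups (x axes); bars and whiskers are the mean ± SD of 3 libraries. Every LPS library lies above every UT library of the same genotype for all genes but Csf2, and Csf3 goes from 1 count over the 6 UT libraries together to 26.9 to 42.8 CPM.

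Csf3 (ENSMUSG00000038067.2, chr11:98701263-98703629, plus strand), which encodes G-CSF, the main growth factor of neutrophils, had the largest response. Without LPS, its counts were 0, 0 and 1 in WT and 0, 0 and 0 in KO. With LPS it had 942, 890 and 909 counts in WT LPS, or 35.1, 40.0 and 42.8 CPM, and 819, 840 and 736 counts in KO LPS, or 31.4, 31.5 and 26.9 CPM. The gene was thus at or near 0 in all 6 libraries without LPS and well counted in all 6 with it. Against a floor of 3 counts over the 3 KO UT libraries, the KO response was at least 1079-fold. In WT, where 1 count stood against 2741, the ratio was 5266 with an exact 95% interval for counting error of 944 to 208063.

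After LPS, each KO library had less Csf3 than each WT library, a separation that 14.9% of all genes tested also showed. The group means were 29.95 ± 2.62 CPM in KO and 39.3 ± 3.91 CPM in WT (SD, n = 3), a log2FC of -0.39 (SE 0.0923, edgeR adjusted p 0.00538), which was not past the fold minimum. Within the batches the KO to WT differences were -0.16, -0.34 and -0.67 on the log2 scale, so the direction was the same in each. The WT LPS libraries with more Csf3 also had the higher short RNA shares (4.97%, 6.25% and 7.71% in batches 1 to 3), and with that share as a covariate the difference was -0.18 (edgeR adjusted p 0.449). Without KO LPS replicate 3 the edgeR adjusted p was 0.0506. No genotype difference is given for UT, where both groups were under the floor.

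Csf1 (ENSMUSG00000014599.10, chr3:107741048-107760469, minus strand), which encodes M-CSF, the survival factor of macrophages, was low without LPS and rose in both genotypes. It was at 4.12, 3.75 and 3.64 CPM in WT UT and at 3.04, 2.88 and 3.92 CPM in KO UT. It was at 31.8, 25.9 and 26.8 CPM in WT LPS and at 24.1, 22.9 and 25.1 CPM in KO LPS. The LPS groups did not overlap the UT groups. The rise was 7.36-fold in WT (log2FC 2.88, SE 0.110, edgeR adjusted p 6.37e-19) and 7.28-fold in KO (log2FC 2.86, SE 0.115, edgeR adjusted p 2.23e-18).

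The 2 responses of Csf1 differed by -0.02 on the log2 scale, with a 95% interval of -0.35 to 0.32 (edgeR adjusted p 0.966). With the short RNA share as a covariate this difference was -0.70 (edgeR adjusted p 0.375), outside that interval. After LPS the KO libraries were all below the WT libraries, as for 14.9% of all genes, but the difference of -0.23 (95% interval -0.43 to -0.03) did not pass the test after adjustment (edgeR adjusted p 0.108). It was -0.39, -0.18 and -0.10 within the 3 batches, and -0.13 without WT LPS replicate 1 (edgeR adjusted p 0.399). With the covariate it was -0.44 (edgeR adjusted p 0.0214). In UT the groups overlapped, and the difference was -0.22 (edgeR adjusted p 0.253), or 0.26 with the covariate (edgeR adjusted p 0.660) and -0.37 with total counts (edgeR adjusted p 0.0313). Without KO UT replicate 2 it was -0.13 and without KO UT replicate 3 it was -0.37 (edgeR adjusted p 0.595 and 0.0605). Fibroblasts express Csf1 and Csf3 too, and the summed level of 8 markers of fibroblasts or stromal cells was 4.82 to 6.82 CPM in the 6 UT libraries, 22.0 to 24.1 CPM in WT LPS and 26.9 to 28.9 CPM in KO LPS. Most of the rise with LPS was that of Pdgfrb, which was at 0.97 CPM in WT UT, 1.26 in KO UT, 19.8 in WT LPS and 19.7 in KO LPS. The others were low and moved in different directions. The WT means before and after LPS were 0.75 and 0.29 CPM for Col1a1, 1.95 and 1.05 for Col1a2, 0.91 and 0.64 for Col3a1 and 0.40 and 0.79 for Dcn. Those in KO were 0.89 and 0.79 CPM for Col1a1, 1.70 and 2.43 for Col1a2, 0.70 and 1.87 for Col3a1 and 1.102 and 2.40 for Dcn. Between KO and WT after LPS 4 of the 8 were called, all higher in KO (Col1a1, Col1a2, Col3a1 and Dcn), against 1.28% of all genes. In UT 2 were called, both higher in KO (Dcn and Pdgfra), against 1.82% of all genes, and Lum was at 0 in all UT libraries. Their part in the Csf1 and Csf3 values was not tested.

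Csf2 (ENSMUSG00000018916.5, chr11:54247271-54249667, minus strand), which encodes GM-CSF, was almost not counted. It had 1, 2 and 0 counts in WT UT, 0, 0 and 3 in KO UT, 4, 0 and 4 in WT LPS and 10, 0 and 2 in KO LPS. Summed over the 3 libraries of a group this was 0.022 CPM in WT UT (exact Poisson 95% interval 0.0046 to 0.065, counting error only) and 0.028 CPM in KO UT (0.0057 to 0.081). It was 0.114 CPM in WT LPS (0.049 to 0.224) and 0.150 CPM in KO LPS (0.077 to 0.262). At least 1 library had 0 counts in every group, and the groups overlapped throughout. Gm12223, an antisense gene, overlaps Csf2, and whether counting used strand is not stated, so the few counts may belong to either. Il3, which encodes IL-3 and lies 15635 bases from Csf2 on the same chromosome, had 0 counts in all 12 libraries.

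The 3 ligand genes share a sequence feature that the receptor genes lack. The pentamer ATTTA in the 3′ untranslated region is the core of AU-rich elements, which are known to shorten the life of many cytokine mRNAs. In the longest coding transcript of GENCODE, Csf2 had 9 copies in 317 bases, a density of 28.4 per kb that 0.0954% of 20962 genes reached. Csf3 had 6 copies in 669 bases (8.97 per kb, reached by 1.62% of genes), and Csf1 had 4 copies in 2111 bases (1.89 per kb, reached by 37.5% of genes). The 3′ untranslated regions of Csf2ra, Csf2rb, Csf2rb2 and Csf3r, of 602, 1816, 1810 and 602 bases, had 0 copies. The 30-base windows with the most copies are shown 5′ to 3′ on the strand of the gene, with each ATTTA in capitals, since they show how closely the copies lie: chr3:107741109-107741138 (minus) for Csf1, chr11:54247329-54247358 (minus) for Csf2 and chr11:98702984-98703013 (plus) for Csf3, all in GRCm38.
Csf1: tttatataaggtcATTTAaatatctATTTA
Csf2: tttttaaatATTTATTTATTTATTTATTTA
Csf3: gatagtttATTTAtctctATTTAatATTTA

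The window of Csf2 holds 5 overlapping copies in a row, that of Csf3 holds 3 and that of Csf1 holds 2. These matches describe the letters of the windows and measure no mRNA decay.

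Csf3r (ENSMUSG00000028859.14, chr4:126024550-126044440, plus strand), which encodes the G-CSF receptor of neutrophils and, at lower levels, monocytes and macrophages, rose most among the receptor genes. It was at 71.8, 70.1 and 72.5 CPM in WT UT and at 64.4, 64.4 and 64.0 CPM in KO UT. It was at 263.0, 248.6 and 265.9 CPM in WT LPS and at 262, 261 and 282 CPM in KO LPS. The lowest LPS library lay far above the highest UT library. The rise was 3.62-fold in WT (log2FC 1.86, SE 0.0550, edgeR adjusted p 1.99e-21) and 4.17-fold in KO (log2FC 2.06, SE 0.0556, edgeR adjusted p 2.17e-22). The receptor gene and its ligand gene Csf3 thus rose together, in 6 of 6 LPS libraries.

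Between the genotypes Csf3r differed little. In UT the KO libraries were all below the WT libraries, as for 19.1% of all genes, by -0.15 on the log2 scale (SE 0.0544, edgeR adjusted p 0.0400), and 24.1% of all genes had an adjusted p below 0.05 in this comparison. Leaving out any 1 of the 6 UT libraries, or KO LPS replicate 1, took that p above 0.05, up to 0.128, and it was 0.0630 with the replicate block and 0.0990 with no filter on low counts. It was below 0.05 in 13 of 24 alternatives, among them DESeq2 (-0.23, adjusted p 0.000193) and RLE scaling (-0.23, edgeR adjusted p 0.00255). After LPS the difference was 0.05 (95% interval -0.06 to 0.16, edgeR adjusted p 0.592), and the responses differed by 0.20 (edgeR adjusted p 0.0681). The adjusted p of the difference of the responses was below 0.05 in 6 of 23 alternatives, which were DESeq2 (0.28, adjusted p 0.00122), RLE scaling (0.28, edgeR adjusted p 0.00960), upper-quartile scaling (0.20, edgeR adjusted p 0.0484) and total counts (0.36, edgeR adjusted p 0.00127), and without WT LPS replicate 1 or 3 (edgeR adjusted p 0.0283 and 0.0497). With the short RNA share as a covariate the 3 differences, in UT, after LPS and in the response, were -0.18, 0.06 and 0.24 (edgeR adjusted p 0.469, 0.669 and 0.596). Neutrophils carry much of this receptor in marrow, and their markers were present at low level: 11 genes summed to 68.5 to 72.9 CPM in WT UT, 81.8 to 83.9 CPM in KO UT, 84.9 to 114 CPM in WT LPS and 96.5 to 106 CPM in KO LPS. The defining marker Ly6g was at 0 in all 12 libraries. In UT 5 of the 11 markers were called between KO and WT, all higher in KO (S100a8, S100a9, Mpo, Camp and Retnlg), against 1.82% of all genes. S100a8 and S100a9, at 7.32 and 10.99 CPM in WT UT, were at 16.4 and 25.5 CPM in KO UT, and the other 3 were under 1 CPM. Mmp8, the most abundant, went from 48.98 to 35.8 CPM, and Csf3r was lower in KO UT too. The part of these markers in the Csf3r values was not tested.

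Csf2ra (ENSMUSG00000059326.6, chr19:61223957-61228429, minus strand), the alpha chain that gives the GM-CSF receptor its specificity, responded to LPS by less than 1 log2 unit. It was at 115, 108 and 111 CPM in WT UT and at 141, 122 and 119 CPM in KO UT. It was at 167, 202 and 216 CPM in WT LPS and at 152, 168 and 153 CPM in KO LPS. UT and LPS libraries did not overlap within a genotype, and KO UT and KO LPS lay close together, with 141 CPM as the highest value of the former and 152 CPM as the lowest of the latter. The rise was 1.75-fold in WT (log2FC 0.81, SE 0.0794, edgeR adjusted p 6.46e-09) and 1.24-fold in KO (log2FC 0.31, SE 0.0792, edgeR adjusted p 0.00158).

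The response of Csf2ra differed between the genotypes by -0.50 on the log2 scale (SE 0.112, edgeR adjusted p 0.00367), the largest such difference among the 5 genes with a value. Of all genes, 17.0% had an adjusted p below 0.05 for this difference. It was made up of a lower level in KO than in WT after LPS (-0.31, SE 0.0792, edgeR adjusted p 0.0120, against 14.6% of all genes at any fold) and a level in UT that was higher in KO without passing the test (0.19, edgeR adjusted p 0.0828, and -0.42 with the short RNA share as a covariate, edgeR adjusted p 0.0476). The UT difference also had an adjusted p below 0.05 with only the compared groups (0.19, edgeR adjusted p 0.00417), with no filter on low counts (0.19, edgeR adjusted p 0.0244) and without WT LPS replicate 1 or 3 (edgeR adjusted p 0.00749 and 0.0325), and it was 0.12 without KO UT replicate 1 (edgeR adjusted p 0.367). Within the batches the KO to WT difference after LPS was -0.13, -0.27 and -0.50. The short RNA share moved with this gene: the KO UT libraries had a higher share and more Csf2ra than the WT UT libraries, and among the WT LPS libraries the one with the lowest share had the least Csf2ra and the one with the highest share the most. With the share as a covariate the difference of the responses was 0.39 (edgeR adjusted p 0.361), the opposite sign, and the difference after LPS was -0.03 (edgeR adjusted p 0.865). Leaving out WT LPS replicate 2 or 3, or KO LPS replicate 1 or 3, took the edgeR adjusted p after LPS above 0.05, up to 0.0656.

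Csf2rb (ENSMUSG00000071713.4, chr15:78325752-78353847, plus strand), the common beta chain of the receptors for GM-CSF, IL-3 and IL-5, had the highest CPM of these genes in every group, without correction for length. It was at 565, 564 and 567 CPM in WT UT and at 464, 469 and 465 CPM in KO UT. It was at 1149, 1010 and 1039 CPM in WT LPS and at 1033, 1052 and 1066 CPM in KO LPS. The KO UT libraries formed the lowest group, WT UT came next, and the LPS groups overlapped. The rise was 1.89-fold in WT (log2FC 0.91, SE 0.0510, edgeR adjusted p 3.79e-15) and 2.25-fold in KO (log2FC 1.172, SE 0.0513, edgeR adjusted p 1.62e-17). The value in KO lay close above the fold minimum, and it was 0.99 with upper-quartile scaling, 0.98 with the short RNA share as a covariate and 0.66 with total counts.

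Csf2rb2 (ENSMUSG00000071714.5, chr15:78282507-78305721, minus strand), the IL-3-specific beta chain of the mouse, followed the same pattern on a lower scale. It was at 376, 369 and 371 CPM in WT UT and at 306, 320 and 311 CPM in KO UT. It was at 568, 487 and 515 CPM in WT LPS and at 514, 526 and 527 CPM in KO LPS. The order of the groups was that of Csf2rb, with the LPS groups again overlapping. The rise was 1.41-fold in WT (log2FC 0.49, SE 0.0543, edgeR adjusted p 6.06e-09) and 1.67-fold in KO (log2FC 0.74, SE 0.0545, edgeR adjusted p 1.64e-12).

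In UT both beta chain genes were lower in KO than in WT. The difference was -0.28 for Csf2rb (SE 0.0507, edgeR adjusted p 0.000162) and -0.25 for Csf2rb2 (SE 0.0543, edgeR adjusted p 0.000937), neither past the fold minimum. Within the 3 batches it was -0.28, -0.27 and -0.28 for Csf2rb and -0.30, -0.20 and -0.26 for Csf2rb2, so it recurred in each. With the short RNA share as a covariate it was -0.09 (edgeR adjusted p 0.717) and -0.08 (edgeR adjusted p 0.796). After LPS the genotypes differed by -0.02 (95% interval -0.13 to 0.08) for Csf2rb and by -0.0024 (95% interval -0.11 to 0.11) for Csf2rb2, or by -0.10 and -0.08 with the covariate (edgeR adjusted p 0.261 and 0.495). The LPS responses differed by 0.26 for Csf2rb (SE 0.0717, edgeR adjusted p 0.0137) and by 0.25 for Csf2rb2 (SE 0.0767, edgeR adjusted p 0.0247). With the covariate these were -0.02 and -0.0035, and without WT LPS replicate 2 their edgeR adjusted p was 0.0540 and 0.0941. That of Csf2rb2 was also above 0.05, up to 0.0586, without WT UT replicate 1 or 3, KO UT replicate 1 or KO LPS replicate 2 or 3. With the replicate block, which pairs libraries of 1 batch, the edgeR adjusted p of Csf2rb2 was 0.0531.

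**Figure D2:**
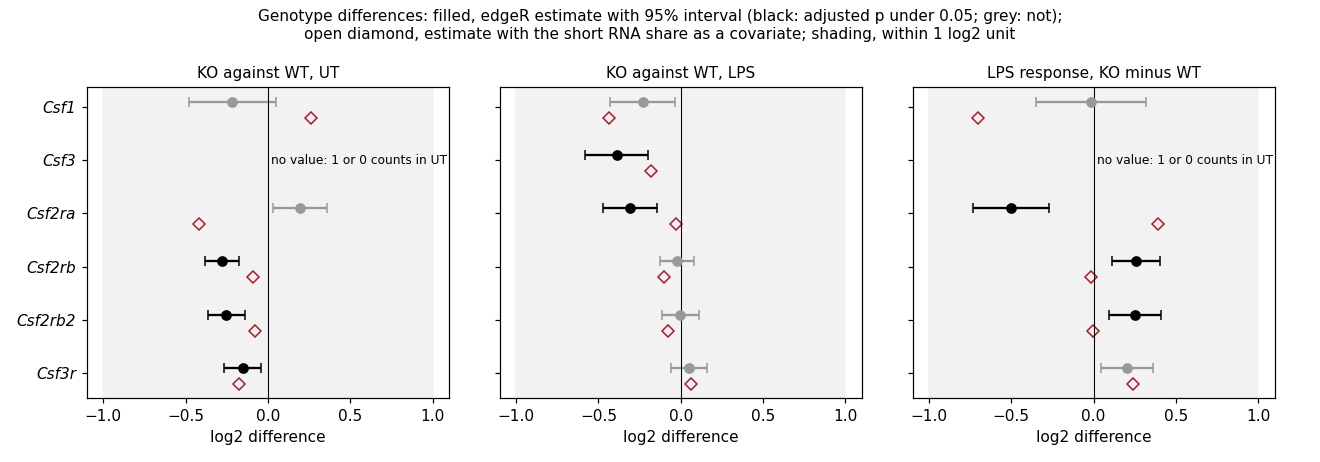
Log2 differences (x axes) of the 6 genes tested (y axis) between KO and WT in UT and after LPS, and in the LPS response; filled points are edgeR estimates with 95% intervals, open diamonds the estimates with the short RNA share as a covariate. Csf3 is left without a point in UT and in the response, where UT had 1 or 0 counts. All points shown lie within 1 log2 unit of 0, and the diamonds fall on the other side of 0 from the filled point for Csf1 in UT (0.26), for Csf2ra in UT (-0.42) and in the LPS response (0.39), and just across it for the beta chain genes in the response.

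The direction of the smaller LPS responses depended on the scaling of the libraries. TMM factors were 1.15 to 1.29 in the UT libraries and 0.81 to 0.82 in the LPS libraries. With total counts in place of TMM, the median log2 fold change of all genes with LPS was -0.62 in WT and -0.56 in KO, and Csf2rb2 in WT (-0.17) and Csf2ra in KO (-0.20) fell while still lying above that median. Csf1, Csf3, Csf3r and Csf2rb rose with LPS in both genotypes under every scaling tried. Only Csf1, Csf3 and Csf3r stayed past the fold minimum in both genotypes under every scaling.

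**Figure D3:**
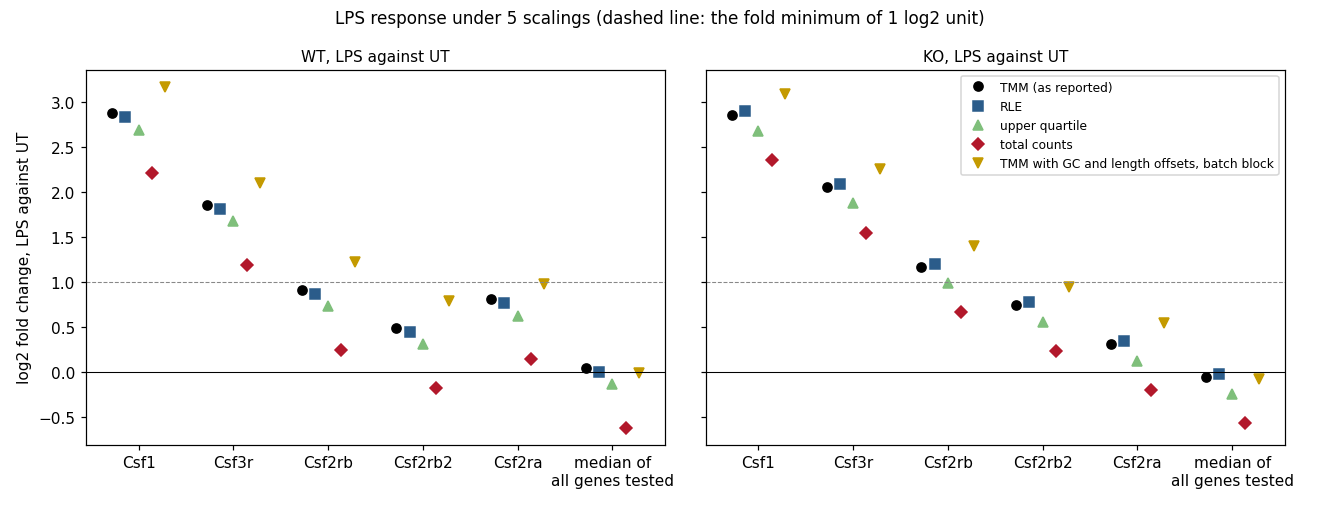
Log2 fold change with LPS (y axis) of 5 genes and of the median of all genes tested (x axis) in WT and KO under 5 scalings of the libraries. Csf1 and Csf3r lie above the dashed fold minimum under all 5, whereas with total counts Csf2rb2 in WT is at -0.17, Csf2ra in KO at -0.20 and the median gene at -0.62 and -0.56.

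A measure that needs no scaling is the ratio of Csf2rb counts to Csf2rb2 counts within a library. It was 1.505, 1.527 and 1.527 in WT UT, 1.517, 1.463 and 1.497 in KO UT, 2.02, 2.07 and 2.02 in WT LPS and 2.01, 2.00 and 2.02 in KO LPS. All 6 LPS libraries lay above all 6 UT libraries. With LPS the ratio rose 1.34-fold over both genotypes (exact permutation test of labels within genotype, two-sided p 0.005, the smallest this design can give, adjusted p 0.0300 over 6 tests of the ratio). Common and IL-3-specific beta chain counts therefore did not rise in proportion. Between the genotypes the ratio was 0.984-fold in KO over both treatments (exact permutation test within treatment, two-sided p 0.0400, adjusted p 0.120). Within 1 genotype or treatment, 3 libraries against 3 cannot give a p below 0.1.

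**Figure D4:**
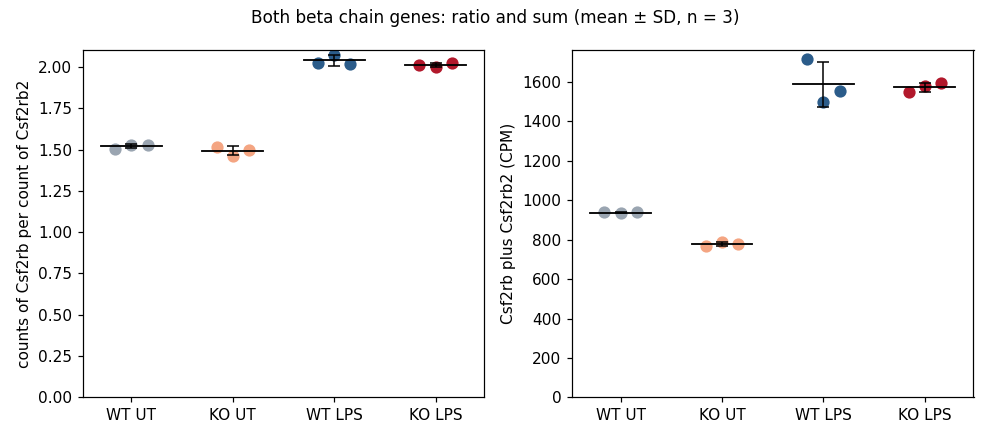
Counts of Csf2rb per count of Csf2rb2 (left) and the sum of both in CPM (right) in every library of the 4 groups, with the mean ± SD of 3 libraries. The ratio lies between 1.46 and 1.53 in UT and between 2.00 and 2.07 after LPS in both genotypes.

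The 2 beta chain genes are near copies, and this bears on how their reads were counted. They lie head to head on chromosome 15 with 20030 bases between them. Their coding sequences matched at 2503 of 2628 aligned bases (95.2%). Of the 100-base windows of the Csf2rb transcript, close to the length of a read, 6.96% were found unchanged in the Csf2rb2 transcript. A read that falls wholly in such a window fits both genes, although its mate may place the pair. How the counting treated such reads is not stated. The level of each gene is therefore uncertain by an amount that the share of windows does not measure. The longest stretch without a difference had 242 bases, at chr15:78348577-78348818 (plus strand) in Csf2rb and chr15:78284630-78284871 (minus strand) in Csf2rb2. It is shown 5′ to 3′ from the GENCODE transcript because a read pair within it fits both genes, and the capitals mark the 62 bases annotated as the microRNA gene Mir7676-2 (chr15:78348599-78348660), whose copy in Csf2rb2 is Mir7676-1.
Csf2rb and Csf2rb2: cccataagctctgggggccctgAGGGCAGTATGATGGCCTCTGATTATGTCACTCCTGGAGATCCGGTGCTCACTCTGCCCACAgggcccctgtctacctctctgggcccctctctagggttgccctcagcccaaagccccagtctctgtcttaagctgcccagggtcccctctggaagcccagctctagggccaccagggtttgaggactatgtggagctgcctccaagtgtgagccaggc

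**Figure D5:**
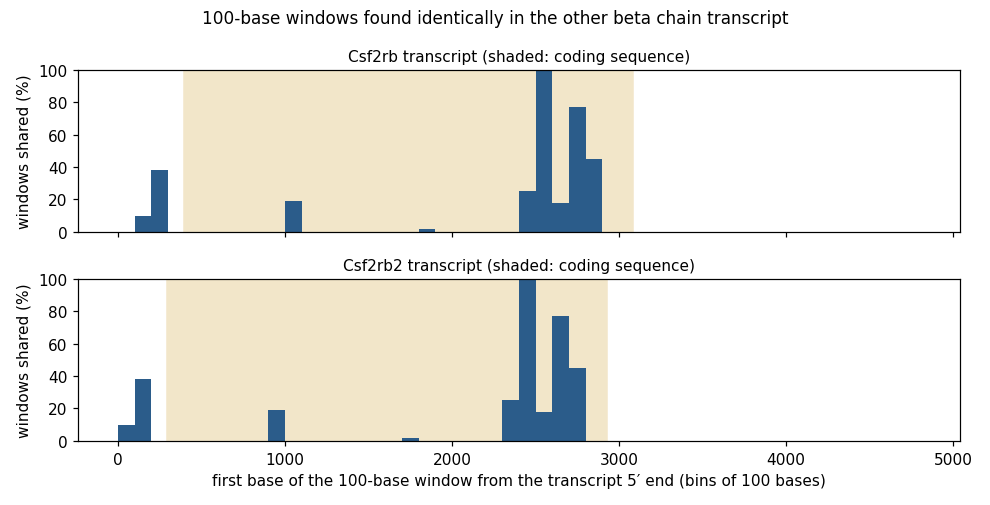
Share of 100-base windows (y axis, percent, in bins of 100 start positions) along the Csf2rb and Csf2rb2 transcripts (x axis, bases from the 5′ end) that occur unchanged in the other transcript. Shared windows crowd into the last part of the coding sequence, where 1 bin reaches 100%, and the 3′ untranslated regions hold none.

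Promoter windows were at hand from RefSeq (GRCm38.p6, 250 bases before to 50 after the RefSeq start) for 5 of the 7 genes: Csf1, Csf2, Csf2ra, Csf2rb2 and Csf3r. Positions are counted from the RefSeq start, which can differ from the GENCODE start of the gene. The window of Csf2 (chr11:54249850-54250149, minus) lies wholly before its GENCODE start at 54249667, so the bases next to that start were not searched. The windows were searched on both strands for the NF-kappaB consensus, the PU.1 core GAGGAA, the C/EBP motif TTGCNNAA, the STAT element TTCNNNGAA (GAS) and the AP-1 motif TGANTCA. NF-kappaB is the transcription factor activated by LPS, and PU.1 is the factor of the macrophage lineage. The NF-kappaB consensus was found in 8.46% of 32851 windows, among them those of Csf1 (at -154 from the start) and Csf3r (at -129). Its relation to the LPS response was not tested, since Csf2 did not pass the filter and Csf3 had no window. The PU.1 core, present in 28.3% of windows, was found in Csf2ra (-14 and -8), Csf2rb2 (-167 and 30) and Csf3r (-86). The C/EBP motif (10.8% of windows) was in the window of Csf2, at -145 from the RefSeq start and not from the GENCODE start. The GAS element (8.30% of windows) was in Csf2rb2 at -15, and the AP-1 motif (7.81% of windows) in 0 of the 5 windows. No match overlapped that of another motif. The 4 windows with a match to either of the first 2 motifs are shown 5′ to 3′ on the strand of the gene, with the 10-base NF-kappaB and 6-base PU.1 matches in capitals, for chr3:107760420-107760719 (minus), chr4:126024409-126024708 (plus), chr19:61228369-61228668 (minus) and chr15:78305672-78305971 (minus).
Csf1: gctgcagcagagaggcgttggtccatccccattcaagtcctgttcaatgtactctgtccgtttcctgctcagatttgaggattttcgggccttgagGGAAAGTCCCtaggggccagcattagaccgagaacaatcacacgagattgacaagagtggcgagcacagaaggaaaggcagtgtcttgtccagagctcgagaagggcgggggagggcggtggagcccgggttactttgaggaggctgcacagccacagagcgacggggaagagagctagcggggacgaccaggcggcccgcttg
Csf3r: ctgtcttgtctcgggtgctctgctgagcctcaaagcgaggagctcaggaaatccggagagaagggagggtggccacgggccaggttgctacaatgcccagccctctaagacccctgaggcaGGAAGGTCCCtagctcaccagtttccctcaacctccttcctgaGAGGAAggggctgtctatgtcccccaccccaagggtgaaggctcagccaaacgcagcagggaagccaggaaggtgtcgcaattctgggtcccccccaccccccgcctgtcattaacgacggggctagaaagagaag
Csf2ra: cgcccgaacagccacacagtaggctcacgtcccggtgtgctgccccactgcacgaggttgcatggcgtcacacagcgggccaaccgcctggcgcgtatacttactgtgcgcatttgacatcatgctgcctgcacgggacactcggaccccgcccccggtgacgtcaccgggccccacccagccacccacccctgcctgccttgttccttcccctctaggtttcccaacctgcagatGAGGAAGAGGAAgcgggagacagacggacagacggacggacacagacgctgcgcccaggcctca
Csf2rb2: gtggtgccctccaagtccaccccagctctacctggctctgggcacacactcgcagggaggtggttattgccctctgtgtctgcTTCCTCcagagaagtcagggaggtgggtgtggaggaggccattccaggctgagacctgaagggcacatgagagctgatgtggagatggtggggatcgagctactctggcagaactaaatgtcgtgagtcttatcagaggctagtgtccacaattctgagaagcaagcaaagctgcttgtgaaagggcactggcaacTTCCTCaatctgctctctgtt

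The matches are letters in a window, and no binding was measured in these libraries.

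Levels were compared between genes per kb of annotated exon. In WT UT the order was Csf2rb2 (78.5 ± 0.67 CPM per kb), Csf2rb (77.7 ± 0.22), Csf2ra (38.8 ± 1.06), Csf3r (19.8 ± 0.34), Csf1 (0.73 ± 0.05) and, near 0, Csf2 and Csf3 (SD, n = 3). The ranges of the 2 beta chain genes overlapped in WT UT. In WT LPS the order was Csf2rb (146 ± 10.1), Csf2rb2 (110 ± 8.67), Csf3r (71.8 ± 2.57), Csf2ra (67.9 ± 8.93), Csf3 (27.8 ± 2.77), Csf1 (5.33 ± 0.59) and Csf2 (0.14 ± 0.12), and Csf3r and Csf2ra did not differ beyond their spread. In KO LPS Csf3r (74.3 ± 3.24) lay above Csf2ra (54.9 ± 3.03) without overlap. With the longest transcript as the length, Csf2rb rose to 115 CPM per kb in WT UT, above Csf2rb2, and Csf2ra to 85.7 in WT LPS, above Csf3r at 74.5, so these parts of the order depended on the length used.

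Of 10 other ligands and receptors of these families, 7 passed the filter, and in each genotype 1 was called higher (Il34) and 2 lower (Kit and Kitl) with LPS, where 37.8% of all genes were called in WT and 36.9% in KO. Csf1r, the receptor for CSF1, stayed high in all groups, at 2448 ± 21.0 CPM in WT UT, 2242 ± 54.8 in KO UT, 1880 ± 80.4 in WT LPS and 2109 ± 71.3 in KO LPS (SD, n = 3). With LPS it fell in WT (log2FC -0.38, edgeR adjusted p 4.25e-08), while the value in KO was -0.09 (edgeR adjusted p 0.0910). The responses differed by 0.29 (edgeR adjusted p 0.00291). Il3ra, the alpha chain of the IL-3 receptor, was at 18.5 CPM in WT UT, 25.1 in KO UT, 31.2 in WT LPS and 29.9 in KO LPS, and its LPS response differed between the genotypes by -0.49 (edgeR adjusted p 0.0133), against -0.50 for Csf2ra. Values with the short RNA share as a covariate were not computed for Csf1r and Il3ra. Il5 had 0 counts in all libraries and Il5ra at most 5. Kitl, the ligand of the receptor tyrosine kinase KIT, fell with LPS from 15.3 to 1.88 CPM in WT and from 13.9 to 2.03 CPM in KO, and Kit fell too (log2FC -1.88 and -2.46). Il34, the other ligand of CSF1R, had at most 5 counts in any UT library, 3 to 7 in WT LPS and 14 to 20 in KO LPS.

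Downstream of these receptors, of 10 feedback regulators and targets of STAT5 and STAT3, 6 were called higher and 1 lower with LPS in WT, and 4 higher and 1 lower in KO, with median log2 fold changes of 1.13 and 0.98, against 0.05 and -0.06 over all genes tested, of which 19.1% and 17.6% were called higher. Socs3, the inhibitor of G-CSF receptor signaling, rose by 7.24 in WT and 7.34 in KO, and Socs1 by 6.37 and 5.71, while Cish, a target of STAT5, had -0.22 (edgeR adjusted p 0.275) in WT and fell by 0.78 (edgeR adjusted p 0.00102) in KO. Of 11 adaptors of CSF1R, 1 was called higher and 2 lower in WT, and 3 higher and 0 lower in KO, with medians of 0.00 and 0.16, beside 37.8% and 36.9% of all genes called. At any fold 9 and 11 of them passed the adjusted p threshold, beside 73.1% and 72.6%.

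Of 8 tested genes known to respond to GM-CSF, 3 were called higher and 3 lower with LPS in WT, and 3 higher and 4 lower in KO, with medians of -0.41 and -0.36, and as above 37.8% and 36.9% of all genes were called in either direction. Those that rose were the chemokine genes Ccl17 and Ccl22 and the gene of PU.1, Spi1. Ccl22 rose by 4.31 in WT and 4.53 in KO, and Ccl17 went from 0 counts in all UT libraries to 41 to 69 counts in WT LPS and 30 in each KO LPS library. Those that fell included Pparg, a lipid-sensing factor of alveolar macrophages, (-2.92 and -2.89), and Irf4, a factor of dendritic cells (-2.56 and -3.41). In these 3 lists and that of the other ligands and receptors, 0 genes were called between the genotypes (1.28% of all genes after LPS and 1.82% in UT) or for the difference of the LPS responses (2.07%). At any fold, after LPS, 5 of the 10 feedback regulators and targets had an adjusted p below 0.05, all lower in KO than in WT, against 14.6% of all genes, with a list median of -0.26 against -0.01. Among these 5 were Cish (-0.89, edgeR adjusted p 0.00384) and Socs1 (-0.34, edgeR adjusted p 0.00832). In the same comparison 1 of the 7 other ligands and receptors and 2 of the 11 adaptors were higher in KO, and of the 8 GM-CSF responsive genes 2 were higher and 2 lower. In UT the feedback list had 0 such genes, against 24.1% of all genes, and for the difference of the responses it had 3, all lower in KO, against 17.0%. These list genes were not fitted with the short RNA share as a covariate.

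The genes whose log2 CPM followed each of these genes most closely over the 12 libraries were found among 9084 protein-coding genes with a mean of at least 5 CPM. Csf3 was followed by Noct, Il1f6 and Il1b (Pearson r of 0.9995 to 0.9997), Csf1 by Tlk2, Klf7 and Gfi1 (0.998 to 0.999) and Csf3r by Tnfrsf1b, Itga5 and Mmp13 (0.999). Csf2rb was followed by Cdkn1a, Map4 and Ifi203 (0.998), Csf2rb2 by Slfn9, Ptk2b and Atp2b4 (0.993) and Csf2ra by Slc25a28, Gpatch3 and Cdk2ap2 (0.968 to 0.973). The libraries share the LPS contrast and the library depth, so high values are common, and ranking by Spearman's rho kept 1 of the 3 names for Csf1, Csf3 and Csf2ra and 0 for the other 3 genes.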

How the data were processed

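The authors prepared stranded, globin-depleted total RNA libraries (TruSeq), sequenced read pairs, aligned them to GRCm38 (mm10) with HISAT2 2.1.0 and counted them per gene with featureCounts 2.0.0, and SAMtools 1.17 and FastQC 0.11.9 are listed in the submitters' processing notes. The deposited table holds raw counts per gene, and which annotation release and strand setting were used, and how multi-mapping reads were handled, is not given in the sources used here. Of 48526 genes 22406 had 0 counts throughout, and 48144 IDs were matched to GENCODE.

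Tests on the counts used edgeR 4.0.16 (R 4.3.3, TMM, robust quasi-likelihood F-test), one model of 4 group means over 12 libraries, two-sided, with Benjamini-Hochberg adjustment over the 15523 genes kept by filterByExpr (minimum count 10, minimum total 15). The fold and p thresholds are those of the study. The test was tested on simulated data. Alternatives were DESeq2 1.42.0, other scalings and filters, a replicate block, the short RNA share as a covariate, Csf2rb and Csf2rb2 summed, no fold minimum and leaving out each library. Chosen after seeing the data were total counts as scaling and GC and length offsets with the replicate block. A batch field in the labels gives numbers that match the replicate numbers and so pair the libraries, although deviations from group means of the 18 same-numbered pairs correlated at -0.124 to 0.0636, no more than those of different-numbered pairs (-0.0850 to 0.136). Similar genes were the 3 with the highest Pearson r of log2 CPM (prior count 2). The genes, lists and tests were chosen with earlier results of these data known. Named genes were the 7 genes, Tnf, the other ligands and receptors, at most the 4 list genes with the largest called LPS response per list, and similar genes. Cish and Spi1 fall outside this rule and were named after their values were seen. So were the markers Ly6g, S100a8, S100a9, Mpo, Camp, Retnlg, Mmp8, Lum, Dcn, Pdgfra, Pdgfrb and the collagens. The list of JAK and STAT transducers is not reported here. Sequences came from GENCODE transcripts and RefSeq. RefSeq promoter windows were matched for 5 of 7 genes, and that of Csf2 lies before its GENCODE start. Figures were drawn with matplotlib 3.10.9.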

Additional observations from a re-analysis of the deposited data

Results flagged for a closer look

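The LPS response of 3 receptor genes differed between the genotypes by the test of the difference itself. For Csf2ra the response in KO minus that in WT was -0.50 on the log2 scale (edgeR adjusted p 0.00367). For Csf2rb it was 0.26 (edgeR adjusted p 0.0137), and for Csf2rb2 it was 0.25 (edgeR adjusted p 0.0247). None was past the fold minimum, 17.0% of all genes tested had an adjusted p below 0.05 in this comparison, and with the short RNA share as a covariate the 3 values were 0.39, -0.02 and -0.0035.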

How the results depend on the processing

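With no fold minimum, 2 of 6 genes passed the adjusted p threshold between KO and WT after LPS (14.6% of all genes), 3 in UT (24.1%), 6 with LPS in WT (73.1%), 6 with LPS in KO (72.6%) and 3 for the difference of the responses (17.0%). Under the other alternatives, and with each library left out, 0 genes were called between the genotypes or for the difference of the responses. With LPS 3 were called in WT, or 4 with GC and length offsets, where Csf2rb was at 1.23. In KO 3 or 4 were called, the fewer with upper-quartile scaling, total counts or the short RNA share as a covariate, where Csf2rb was under the fold minimum. With each library left out in turn, 3 were called in WT and 4 in KO in every case. With Csf2rb and Csf2rb2 summed, the sum rose by 1.01 in KO.

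The replicate block changed no call, and it took the adjusted p of Csf3r in UT (0.0630) and of Csf2rb2 for the difference of the responses (0.0531) above 0.05. With GC and length offsets and the block, the same was so for Csf3r in UT (0.108) and for the difference of the responses of Csf2rb (0.0703) and Csf2rb2 (0.113). With the short RNA share as a covariate, the signs turned for Csf1 (0.26) and Csf2ra (-0.42) in UT and for the difference of the responses of Csf2ra (0.39), Csf2rb (-0.016) and Csf2rb2 (-0.0035). With total counts, Csf2rb2 in WT (-0.17) and Csf2ra in KO (-0.20) fell with LPS, and of the 7132 genes called in WT 1685 were higher, against 2964 of 5860 with TMM. With upper-quartile scaling the median gene was at -0.14 in WT and -0.24 in KO with LPS. Values near 0 changed sign without passing the test. For Csf2rb2 between KO and WT after LPS they were 0.0045 (DESeq2), 0.0046 (RLE), 0.025 (no filter) and 0.0022 (total counts), and for Csf2rb 0.0064 (no filter). For the difference of the responses of Csf1 they were 0.065 (DESeq2), 0.063 (RLE), 0.014 (no filter) and 0.14 (total counts). With each library left out, these ranged from -0.049 to 0.061 for Csf2rb2, from -0.056 to 0.037 for Csf2rb and from -0.10 to 0.14 for Csf1. The cause of these changes was not tested. Csf2, and Csf3 in UT, had only a few counts per group.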
